A study of Homo sapiens with 6 samples.

Results

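The 10 keratin genes KRT7, KRT8, KRT10, KRT15, KRT17, KRT18, KRT19, KRT20, KRT23 and KRT80 were taken by name from 58174 genes, and all 10 were found. The table held 55 keratin genes in all. RNA of AGS cells, a line from a human gastric adenocarcinoma, was sequenced from 3 libraries named si-NC and 3 libraries named si-FTO. The si-NC cells carry the genotype label wild type and the si-FTO cells FTO-/-, whereas the sample titles and the study's methods describe a negative control siRNA and an siRNA against FTO, the RNA demethylase of m6A. Which of a deletion and an siRNA lowered FTO therefore differs between the sources. The sources used here for the sequenced libraries give no treatment time, and the labels do not say whether the libraries came from separate cultures.

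Keratins are the intermediate filament proteins of epithelial cells. Each filament is built from pairs of a type I (acidic) and a type II (basic) keratin, and different epithelia use different pairs. KRT8 and KRT18 form the basic pair of simple epithelia such as that of the stomach, where KRT19, KRT7 and KRT20 can join them. KRT10, KRT15 and KRT17 are better known from stratified epithelia and skin appendages.

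Levels were deposited in TPM, which corrects each gene for its length and expresses it as part of the whole transcript pool, with 1 mean per group. Their sums were 999970 for si-NC and 999957 for si-FTO, close to the fixed total of this unit, so the depth of the libraries is unknown. No value per library was used, so neither an error nor a test was computed here, the authors' own comparison columns were not used, and every comparison is a description of 2 group means. Whether any 2 neighbouring levels differ beyond the spread of libraries is therefore unknown. The table prints 0.0001 in place of 0, and such genes are called listed at 0. FTO itself stood at 33.1 TPM with si-NC against 7.27 TPM with si-FTO (log2 ratio -2.05), which is the direction of the labels.

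KRT8, KRT10, KRT17, KRT18 and KRT80, those of the 10 keratin genes above 0 in si-NC, had a higher mean TPM in si-FTO on the deposited scale. KRT7, KRT15, KRT19, KRT20 and KRT23 were listed at 0 in si-NC and so could not be lower in si-FTO. The levels in si-FTO ran from 3139 TPM for KRT8 to 0.11 TPM for KRT23, and those in si-NC from 52.1 TPM for KRT18 to 5 genes listed at 0. The order in si-FTO was KRT8, KRT18, KRT17, KRT7, KRT80, KRT10, KRT15, KRT19, KRT20 and KRT23, whereas in si-NC it was KRT18, KRT10, KRT8, KRT17 and KRT80. KRT17 (264 TPM) and KRT7 (253 TPM) lay close together in si-FTO, as did KRT19, KRT20 and KRT23.

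**Figure D1:**
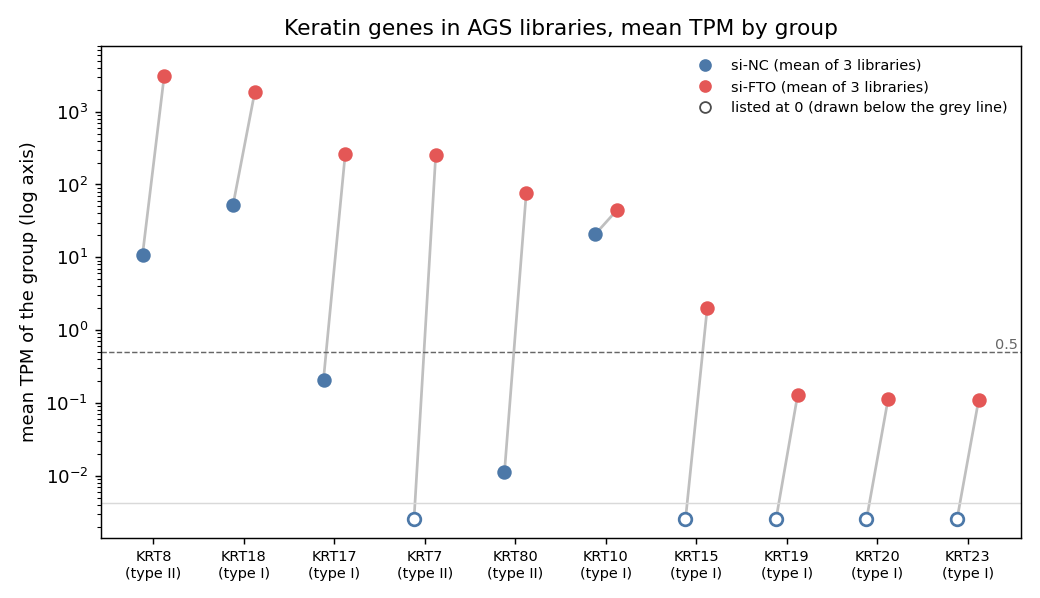
Mean TPM of the 10 keratin genes (log axis) in si-NC (blue) and si-FTO (red), each point the authors' mean over 3 libraries with no error known, open points listed at 0 and the dashed line at 0.5 TPM. KRT8 stands at 10.8 and 3139 TPM, and KRT10, at 20.5 and 44.1 TPM, has the smallest log2 ratio of the 7 genes that reach 0.5 TPM in a group.

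A gene was compared when its mean reached 0.5 TPM in either group, which held for 20493 genes, and was counted as different when log2(TPM + 1) differed by 1 or more between si-FTO and si-NC. Genes listed at 0 entered these counts, and the medians given for gene lists, as 0. Of the 10 keratin genes, 7 entered this count, and all 7 were higher in si-FTO and 0 lower. Over all genes compared, 11.4% were higher by this rule and 17.0% were lower. The 3 genes left out, KRT19, KRT20 and KRT23, were under 0.5 TPM in both groups. KRT7, KRT15, KRT17 and KRT80 passed the minimum only through si-FTO and so could not be lower there, and nothing is read from the count of 7. The median of all genes compared was -0.20 in log2, and quantile normalization of the groups gave 2852 higher and 2845 lower genes, compared with 2340 and 3492 on the deposited scale.

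KRT8 (ENSG00000170421), the type II keratin of simple epithelia, occupies bases 53290971 to 53343738 of chromosome 12 in GRCh37, on the minus strand. It stood at 10.8 TPM with si-NC against 3139 TPM with si-FTO, a difference of 8.06 on the log2(TPM + 1) scale, or 8.26 relative to the median of all genes. By this ratio, KRT8 ranked 10 among the 20493 genes compared, a rank that holds for the pseudocount of 1. By level, it ranked 8736 among 19634 protein-coding genes with si-NC against 25 with si-FTO.

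KRT18 (ENSG00000111057), the type I partner of KRT8, lies beside it on the plus strand at bases 53342655 to 53346690. It stood at 52.1 TPM with si-NC against 1851 TPM with si-FTO, a log2 ratio of 5.12, or 5.33 relative to the median. It was the most abundant keratin in si-NC, at rank 3123 of the protein-coding genes, and reached rank 59 in si-FTO. The annotated spans of KRT8 and KRT18 overlap by 1084 bases on opposite strands. The library kit keeps strand, but whether the counting used it is not given in the sources used here, so reads in the overlap could have gone to either gene.

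KRT8 and KRT18 also have many processed copies in the genome, which could share reads with the functional genes where their sequences match. The canonical KRT8 transcript was aligned with 3 of its copies, and KRT8P3, KRT8P12 and KRT8P33 had 97.1%, 90.5% and 95.8% identical bases. Their longest runs of identical aligned bases were 129, 53 and 133. KRT18P17 had 93.8% identity with KRT18 and a longest run of 97 bases. The other processed copies were not aligned. The identities were computed on the GENCODE transcripts of GRCh37.

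The copies differed among themselves. KRT8P3 had 0.0176 TPM with si-NC against 26.7 TPM with si-FTO, KRT8P33 had 0.513 and 4.76 TPM, and KRT18P17 had 0.263 and 1.72 TPM. KRT8P12, by contrast, had 5.46 and 6.25 TPM, a log2 ratio of 0.17, so it was nearly level between groups in which KRT8 itself was 291 times apart. In si-NC, KRT8P12 came to 50.6% of the level of KRT8, and all 51 KRT8 copies together came to 74.1%, compared with 1.45% in si-FTO. With the TPM of all copies added to KRT8, its log2 ratio was 7.33 in place of 8.06, so KRT8 was far lower in si-NC either way. KRT8P12 made up 5.46 of the 7.99 TPM added to KRT8 in si-NC. Whether and how reads were shared was not tested. KRT8P45, KRT8P42 and KRT8P36 had 1.84, 1.01 and 0.8496 TPM in si-FTO, and were at 0.0526 TPM, listed at 0 and at 0.372 TPM in si-NC. KRT8P46, KRT18P5 and KRT18P4 were lower in si-FTO but within the limit, at 0.658, 0.573 and 0.238 TPM, compared with 1.08, 0.899 and 0.520 TPM. The 67 copies of KRT18 came to 6.68% of KRT18 in si-NC and 0.308% in si-FTO.

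KRT7 (ENSG00000135480) is a type II keratin of glandular and ductal epithelia and lies on chromosome 12 from 52626304 to 52645970. It was listed at 0 in si-NC and had 253 TPM in si-FTO, so no fold is given. Its span overlaps KRT86, KRT7-AS and KRT87P, which had 1.84, 5.48 and 0.799 TPM in si-FTO, small beside KRT7. KRT80 (ENSG00000167767), a type II keratin, is its neighbour, from 52562780 to 52585798. KRT80 had 0.0112 TPM with si-NC against 75.1 TPM with si-FTO, a log2 ratio of 6.23, or 6.44 relative to the median. The pseudocount of 1 understates the difference of so low a gene, and the ratio was 9.40 with a pseudocount of 0.1. KRT80 lies within the antisense gene LINC00592, which had 0.568 TPM in si-FTO.

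KRT17 (ENSG00000128422) is a type I keratin of basal cells and skin appendages that is also induced in injured epithelia. It lies on chromosome 17 from 39775694 to 39781094. It stood at 0.209 TPM with si-NC against 264 TPM with si-FTO, a log2 ratio of 7.77, which is 7.98 relative to the median and was 9.74 with a pseudocount of 0.1. KRT16, its neighbour and relative (82.8% identity over 996 aligned bases), was listed at 0 in si-NC and had 1.21 TPM in si-FTO, and the 8 KRT17 copies together had 0.484 TPM in si-FTO. KRT17 was thus the most abundant keratin gene of chromosome 17 in si-FTO and the third most abundant of the 10.

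KRT10 (ENSG00000186395), known as a keratin of the upper layers of the epidermis, was the least different of the genes that passed the minimum. It lies on chromosome 17 from 38974369 to 38978866. It stood at 20.5 TPM with si-NC against 44.1 TPM with si-FTO, a log2 ratio of 1.07, close to the limit of 1 used for counting and 1.27 relative to the median of all genes. Its antisense neighbour KRT10-AS1, which overlaps it by 3514 bases, went the other way, at 22.4 TPM with si-NC against 12.5 TPM with si-FTO (-0.80), within the limit. As the strand setting is unknown, their reads cannot be told apart. KRT15 (ENSG00000171346), a type I keratin of basal cells and the hair follicle at bases 39669997 to 39678781 of the same chromosome, was listed at 0 in si-NC and had 2.01 TPM in si-FTO.

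KRT19, KRT20 and KRT23 were near the bottom of the scale in both groups. On chromosome 17 they start at bases 39679869, 39032141 and 39078952 and end at bases 39684560, 39041494 and 39093898. KRT19 (ENSG00000171345), the short type I keratin that normally accompanies KRT8 in simple and ductal epithelia, was listed at 0 in si-NC and had 0.130 TPM in si-FTO. KRT20 (ENSG00000171431), a keratin of intestinal and gastric surface cells, had 0.115 TPM in si-FTO, and KRT23 (ENSG00000108244) had 0.110 TPM. Both were listed at 0 in si-NC. At these levels no difference between the groups can be read, and an annotated antisense gene over KRT23, ENSG00000234477, had more signal (1.25 TPM in si-FTO) than KRT23 itself.

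The sum of the 10 keratins was 83.6 TPM with si-NC against 5628 TPM with si-FTO, or 0.00836% and 0.563% of all TPM. On a log2 scale without a pseudocount the sums were 6.07 apart, and without KRT8 and KRT18 they were 4.94 apart. KRT18 (62.3%) and KRT10 (24.6%) made up most of the sum in si-NC. In si-FTO, KRT8 (55.8%) and KRT18 (32.9%) did, followed by KRT17 (4.69%) and KRT7 (4.49%). The share of KRT10 was 0.784% in si-FTO.

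The balance of the types also differed. Type I keratins summed to 72.8 TPM and type II keratins to 10.8 TPM in si-NC, a type I share of 87.1%. In si-FTO the sums were 2161 and 3467 TPM, a type I share of 38.4%. For the pair of KRT8 and KRT18, there were 4.83 TPM of KRT18 for each TPM of KRT8 with si-NC against 0.590 with si-FTO. With the processed copies added to their genes, there were 2.96 TPM of KRT18 for each TPM of KRT8 in si-NC, and the type I share there was 80.3%. These are levels of mRNA, and the amounts of protein were not measured here. In bulk RNA, fewer cells with keratins and less keratin RNA in each cell cannot be told apart.

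**Figure D2:**
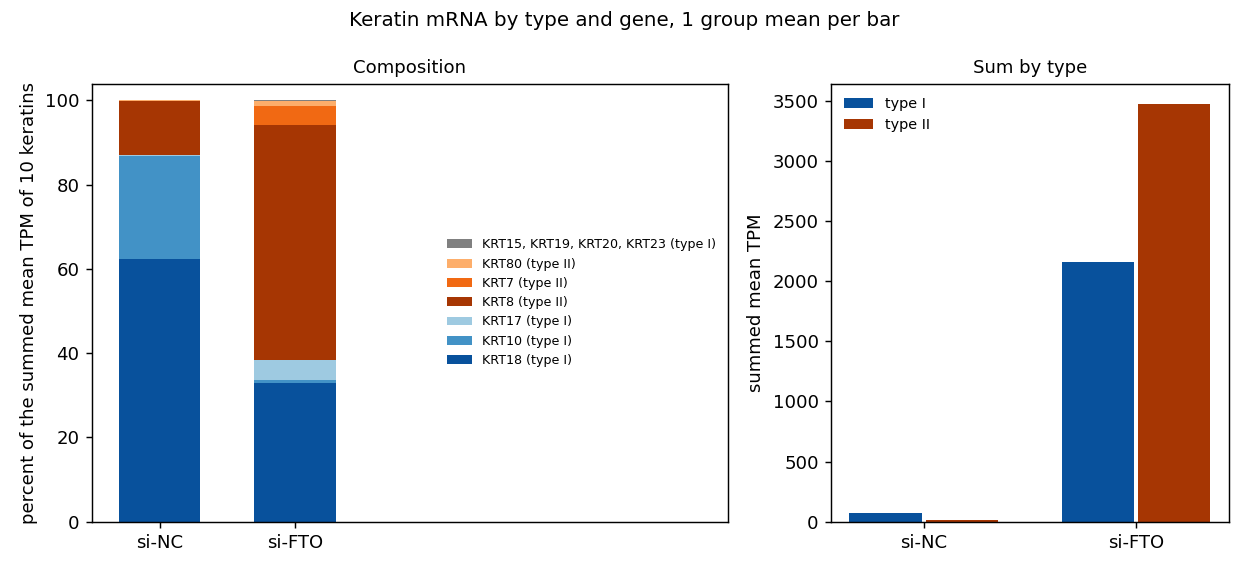
Left, percent of the summed mean TPM of the 10 keratins that each gene makes up in si-NC and si-FTO (blue shades type I, orange shades type II); right, summed mean TPM of each type, with 1 group mean per bar and no error known. Type I keratins make up 87.1% of the sum in si-NC and 38.4% in si-FTO.

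The other keratin genes were mostly listed at 0 in both groups. Of 22 further type I keratins, 3 were above 0 with si-NC against 9 with si-FTO; of 23 further type II keratins, 1 and 5 were. Only 3 of the 22 and 3 of the 23 reached 0.5 TPM in a group. KRT4, a type II keratin of the oesophageal lining, was listed at 0 in si-NC and had 14.6 TPM in si-FTO, and its usual partner KRT13 had 0.544 TPM in si-FTO. KRT86 and KRT81, hair keratins, had 1.84 and 0.566 TPM in si-FTO. KRT222 was the single keratin gene past the limit in the other direction, at 3.49 TPM with si-NC against 0.0067 TPM with si-FTO. On the log2(TPM + 1) scale the median was 0.63 for the 3 type I and 1.42 for the 3 type II genes compared, of which 1 and 2 were higher and 1 and 0 lower past the limit. All but KRT222 reached 0.5 TPM only in si-FTO, and KRT222 only in si-NC, so the minimum fixed the direction of each of these genes, and nothing is read from the counts and medians.

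Several textbook type II partners of skin keratins were listed at 0. KRT1, which pairs with KRT10, was listed at 0 in both groups. KRT5, the partner of KRT15 and of KRT14, and KRT6A, KRT6B and KRT6C, which pair with KRT16 and KRT17, were also listed at 0 in both groups. KRT14 had 0.0788 TPM with si-NC against 0.0262 TPM with si-FTO. The type II keratins above 10 TPM in si-FTO were KRT8, KRT7, KRT80 and KRT4.

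Keratin genes lie in a cluster on each of 2 chromosomes, so their levels were also laid out in genome order. On chromosome 12, from 52562780 to 53346690, the genes of at least 0.5 TPM in si-FTO stood towards the ends. These were KRT80, KRT7, KRT86 and KRT81 at the start and KRT4, KRT8 and KRT18 towards the far end. Of the 27 keratin genes there, 2 reached 0.5 TPM in si-NC (KRT8 and KRT18) and 7 in si-FTO. The stretch between held KRT5 and the KRT6 genes, listed at 0, and KRT83 and KRT85, at 0.0676 and 0.0148 TPM in si-FTO. On chromosome 17, from 38810917 to 39781094, 2 of 28 keratin genes reached 0.5 TPM in si-NC (KRT10 and KRT222) and 5 in si-FTO (KRT10, KRT13, KRT15, KRT16 and KRT17). Of the 34 keratin-associated protein genes within that span, 0 reached 0.5 TPM in either group.

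**Figure D3:**
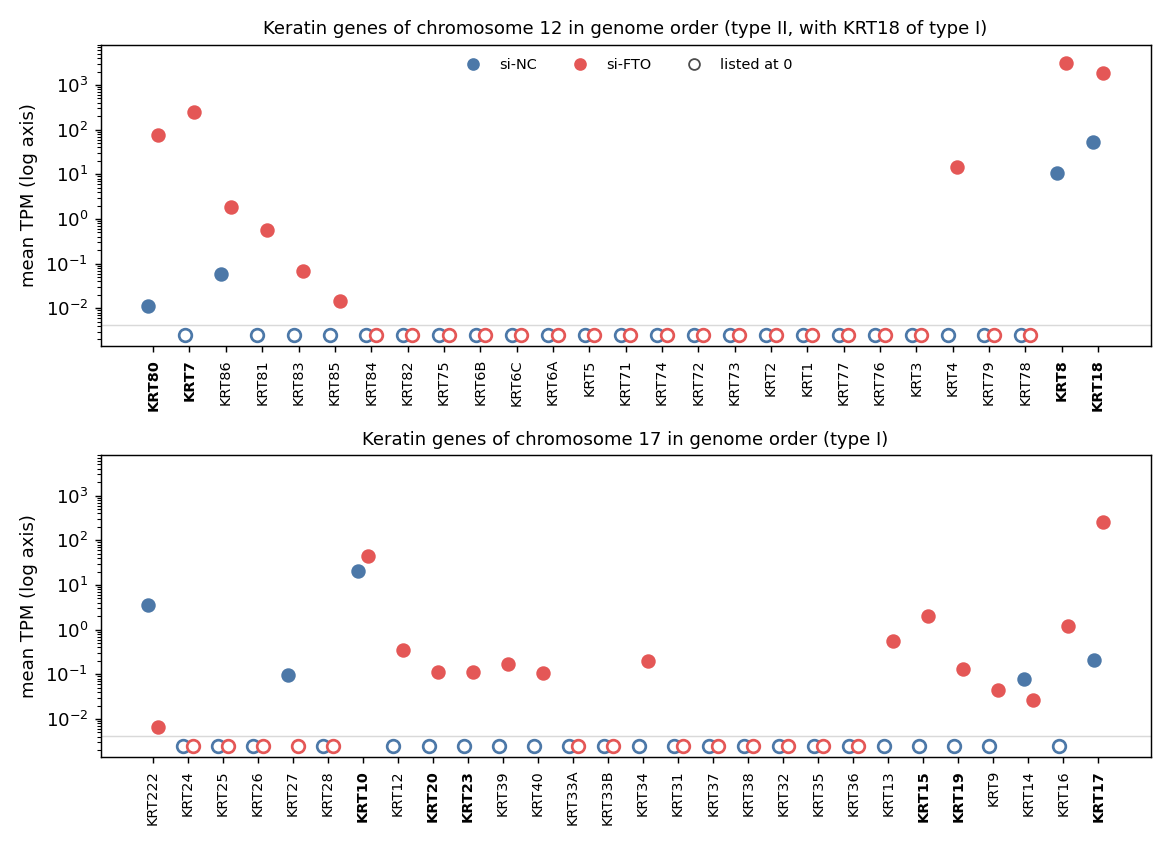
Mean TPM (log axis) of the keratin genes of chromosome 12 (top) and chromosome 17 (bottom) in genome order, si-NC in blue and si-FTO in red, 1 group mean per point, open points listed at 0 and the 10 genes described here in bold. Genes of at least 0.5 TPM in si-FTO lie towards the ends of the chromosome 12 cluster. KRT17, at the end of the chromosome 17 cluster, stands at 264 TPM.

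The nearest expressed protein-coding genes outside each cluster, 5 on each side, are given beside the shares over all genes, 11.4% higher and 17.0% lower with a median of -0.20. Around the chromosome 12 cluster, 6 of 10 were higher past the limit and 1 was lower, with a median log2 ratio of 1.26. They included EIF4B, a translation initiation factor, at 320 TPM with si-NC against 822 TPM with si-FTO, and NR4A1, an immediate early nuclear receptor, with 23.6 and 231 TPM. ACVRL1, a receptor of the TGF-beta family, had 1.37 and 0.00886 TPM, and reached 0.5 TPM only in si-NC, so it could not be higher in si-FTO. Around the chromosome 17 cluster, 3 of 10 were higher and 1 lower, with a median of 0.15, from HAP1 at -1.90 to IGFBP4 at 4.36. JUP, 1 of these 3, is counted again among the desmosome genes below. HAP1 reached 0.5 TPM only in si-NC, and TNS4, 1 of the 3 higher genes, and GJD3, within the limit, only in si-FTO, so the minimum fixed their direction. These genes were picked by position after the keratin values were known.

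RefSeq promoter entries of 300 bases (GRCh38.p14) were matched for KRT8, KRT10 and KRT20, and not for KRT7, KRT15, KRT17, KRT18, KRT19, KRT23 and KRT80. The entries of KRT8, the most abundant of the 10 in si-FTO, and of KRT10, with the smallest log2 ratio of the 7 genes compared, are shown 5′ to 3′ on the strand of the gene. KRT8 is at chr12:52926420-52926719 and KRT10 at chr17:40822565-40822864, both on the minus strand. Capitals mark a match to TATAAA, searched on both strands as was GGGCGG (a GC box) and TGANTCA (an AP-1 site).
KRT8: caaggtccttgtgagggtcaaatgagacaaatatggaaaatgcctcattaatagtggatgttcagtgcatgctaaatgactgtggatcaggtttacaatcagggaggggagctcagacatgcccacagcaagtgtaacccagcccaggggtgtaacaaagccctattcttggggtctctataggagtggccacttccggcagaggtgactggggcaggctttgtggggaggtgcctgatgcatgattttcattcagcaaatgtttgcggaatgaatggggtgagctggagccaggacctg
KRT10: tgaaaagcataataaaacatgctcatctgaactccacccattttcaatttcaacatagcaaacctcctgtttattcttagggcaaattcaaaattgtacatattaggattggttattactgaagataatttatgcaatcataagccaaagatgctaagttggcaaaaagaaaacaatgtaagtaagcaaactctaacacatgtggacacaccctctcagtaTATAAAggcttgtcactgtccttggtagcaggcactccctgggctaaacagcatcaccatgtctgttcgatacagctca

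KRT10 held TATAAA at position 222 of its 300 bases, and the KRT8 entry held none of the 3 motifs. Whether this KRT8 entry lies at the main start of the gene was not checked, so no difference from KRT10 is read from it. Of the 35116 promoter entries of this length, 11.5% held TATAAA, 45.0% held GGGCGG and 7.71% held TGANTCA. G and C made up 50.7% of the KRT8 entry and 37.7% of the KRT10 entry, against a median of 58.7% over all entries. The KRT20 entry, of a gene near 0 in both groups, also held none of the 3 motifs. The letters alone say nothing about whether a factor binds there, or whether transcription starts there in these cells.

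Keratin filaments are anchored at desmosomes, the adhesive junctions between epithelial cells, through plakin proteins. Of the 19 desmosome and plakin genes, 14 were compared, and 7 were higher in si-FTO, 2 were lower and 5 were within the limit, with a median log2 ratio of 1.00, compared with 11.4% higher, 17.0% lower and a median of -0.20 over all genes. PPL and EVPL, 2 of the 7, reached 0.5 TPM only in si-FTO and so could not be lower there. PKP3, a plakophilin of desmosomal plaques, had 0.949 TPM with si-NC against 64.6 TPM with si-FTO, a log2 ratio of 5.07. PPL, the plakin periplakin, had 0.478 and 37.4 TPM (4.70). JUP, plakoglobin, had the highest level of these genes in si-FTO, with 55.4 and 368 TPM (2.71), and DSP, desmoplakin, the main link of keratin to desmosomes, had 54.6 and 126 TPM (1.19). Of the desmosomal cadherins, DSC3 had 20.9 and 0.962 TPM (-3.48) and DSC2 had 10.03 and 1.5 TPM (-2.14), both lower past the limit. DSG2 had 103 and 54.6 TPM (-0.90), within the limit. DSC1, DSG1, DSG3 and DSG4 were at or near 0 in both groups and were not compared. The genes past the limit were thus plaque and linker genes where higher, and desmocollins where lower, a grouping made with the values known.

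Of the 6 hemidesmosome genes, whose products fix keratin to the basement membrane, 5 were compared and 2 were higher, with a median of 0.55, beside 11.4% higher and a median of -0.20 over all genes. PLEC, 1 of the 2, and DST are also among the desmosome and plakin genes above. ITGB4, the integrin subunit that binds plectin, had 1.78 TPM with si-NC against 20.6 TPM with si-FTO (2.96), and PLEC, plectin, had 24.3 and 152 TPM (2.59). ITGA6, the partner of ITGB4, had 9.91 and 9.13 TPM, and CD151, the most abundant, had 169 and 247 TPM.

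Of the 15 other intermediate filament genes, 14 were compared, with 3 higher, 4 lower and 7 within the limit, and a median of -0.32. Over all genes, 11.4% were higher and 17.0% lower, with a median of -0.20. The 4 lower genes reached 0.5 TPM only in si-NC, and 1 of the 3 higher genes, NEFH, only in si-FTO. VIM, vimentin of mesenchymal and cultured cells, had 440 TPM with si-NC against 752 TPM with si-FTO (0.77). In si-NC, vimentin was therefore above every keratin, and in si-FTO it was below KRT8 and KRT18. NEFL and NEFM, neurofilament subunits, had 62.7 and 49.9 TPM in si-NC and were listed at 0 in si-FTO. The third subunit, NEFH, had 0.242 and 12.97 TPM (3.49), and LMNA, a lamin of the nuclear envelope, had 35.2 and 225 TPM (2.65).

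Of the 16 genes of squamous differentiation, 4 were compared and 4 were higher, with a median of 2.80, beside 11.4% higher over all genes. PI3, 1 of the 4, reached 0.5 TPM only in si-FTO and so could not be lower there, and with so few genes the count is a description only. SFN, the 14-3-3 protein stratifin that binds KRT17, had 0.812 TPM with si-NC against 419 TPM with si-FTO (7.86), and PI3, the protease inhibitor elafin, was listed at 0 in si-NC and had 14.3 TPM in si-FTO. The defining genes of the cornified envelope (IVL, LORICRIN, FLG, SPRR1A, SPRR1B, SPRR2A and SPRR3) were listed at 0 in both groups.

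Of the 19 epithelial transcription factors, 14 were compared, with 4 higher, 5 lower and 5 within the limit, and a median of 0.27, beside the 11.4% higher, 17.0% lower and median of -0.20 of all genes. ELF3 and HNF4A among the higher genes reached 0.5 TPM only in si-FTO, and CDX2, GATA4, SOX2 and SOX9 among the lower genes only in si-NC. ELF3, an epithelial ETS factor, had 0.115 TPM with si-NC against 93.3 TPM with si-FTO (6.40), and KLF5 had 12.4 and 43.8 TPM (1.74). GATA4, a factor of the gut endoderm, had 36.96 TPM in si-NC, and CDX2, of the intestine, had 18.1 TPM. Both were listed at 0 in si-FTO. TP63, the main factor of stratified epithelia, had 0.0314 and 0.528 TPM.

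**Figure D4:**
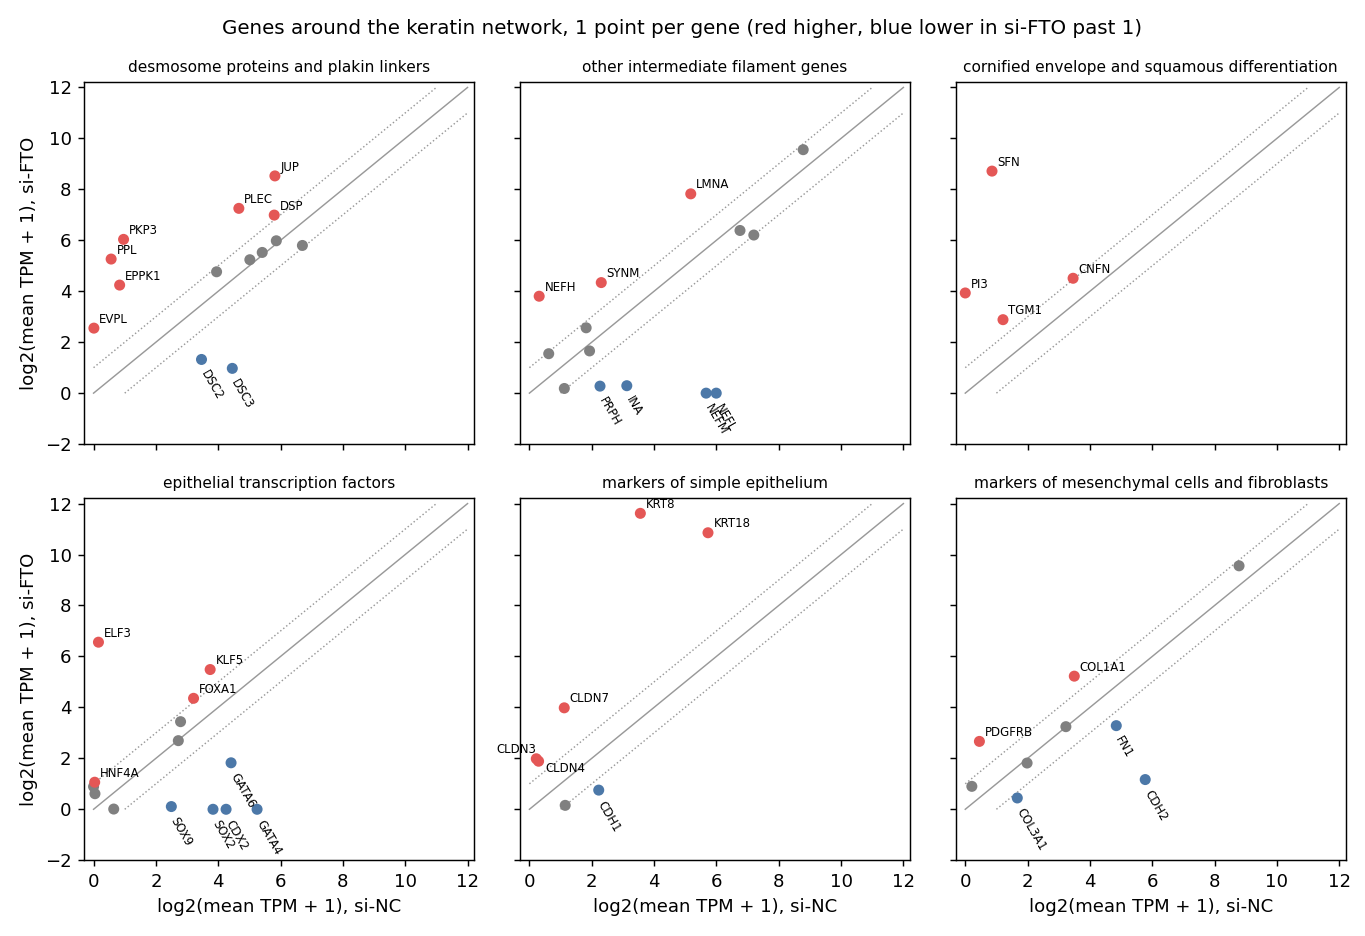
Log2(mean TPM + 1) in si-NC (x) and si-FTO (y) for the compared genes of 6 lists, 1 point per gene with no error known, the solid line marking equal levels and the dotted lines a log2 ratio of 1 in either direction. JUP and PKP3 lie above the lines and DSC2 and DSC3 below them, and VIM, the rightmost point among the other intermediate filament genes, lies between the lines at 440 and 752 TPM.

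The label of the cells was checked against markers. Of the 8 markers of simple epithelium, which include KRT8, KRT18 and KRT19, 7 were compared, with 5 higher in si-FTO, 1 lower and 1 within the limit, and a summed level of 69.3 TPM with si-NC against 5011 TPM with si-FTO. KRT8 and KRT18 made up nearly all of this sum, and the markers other than these summed to 6.45 TPM with si-NC against 21.4 TPM with si-FTO. CLDN3 and CLDN4, 2 of the 5, reached 0.5 TPM only in si-FTO. The shares over all genes were 11.4% higher and 17.0% lower. With a minimum of 5 TPM, 3 of these markers were higher and 0 lower, and with a pseudocount of 0.1, 2 were lower. The markers themselves did not all differ in the same direction. EPCAM, the epithelial adhesion molecule, was low in both groups (1.22 and 0.113 TPM), as was CDH1, E-cadherin (3.67 and 0.685 TPM). CDH1 was lower past the limit, and EPCAM was within it (-0.99). CLDN7, a claudin of epithelial junctions, had 1.17 and 14.8 TPM. Of the 6 gastric markers, 0 reached 0.5 TPM in either group: their sum was 0.0255 TPM with si-NC against 0.467 TPM with si-FTO, MUC5AC was the most abundant in si-FTO and MUC6 in si-NC, and TFF1, GKN1 and PGC were listed at 0 in both. The gastric label of the cells is thus not visible in these markers. Whether the cells of the groups were the same apart from FTO was not tested and cannot be told from these group means, and this holds for every difference given here.

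Markers of other cell types were examined in the same way, and their part in the keratin values was not tested. Their counts stand beside the same 11.4% higher and 17.0% lower over all genes. Of the 10 mesenchymal markers, 9 were compared, with 2 higher and 3 lower, and a sum of 546 TPM with si-NC against 816 TPM with si-FTO, led by VIM, with PDGFRB reaching 0.5 TPM only in si-FTO and COL3A1 only in si-NC. CDH2, N-cadherin, had 53.7 TPM with si-NC against 1.25 TPM with si-FTO, and FN1, fibronectin, had 27.7 and 8.74 TPM. PDGFRB, a growth factor receptor, had 0.370 and 5.34 TPM, and COL1A1, a collagen, had 10.3 and 36.4 TPM, whereas COL1A2, whose product joins that of COL1A1 in type I collagen, was at or near 0 in both. Of 3 endothelial markers found of 4 sought, 1 was compared and 1 was higher, through si-FTO only: CDH5 had 0.00827 TPM with si-NC against 40.9 TPM with si-FTO, whereas VWF was at 0.0537 TPM and KDR was listed at 0 in si-FTO. Of 5 blood cell markers, summing to 10.4 and 10.2 TPM, 1 was higher and 1 lower (2 lower with a pseudocount of 0.1, 0 with median-ratio scaling or a minimum of 5 TPM), PTPRC was listed at 0 in both groups, and the most abundant was HBA1 in si-NC (6.21 TPM) and CD68 in si-FTO (6.42 TPM). Of 5 neuroendocrine and neuronal markers, summing to 40.9 and 20.0 TPM and led by ENO2 in both groups, 0 were higher and 1, SYP, was lower (14.3 and 0.743 TPM). With a pseudocount of 0.1, 2 of these were lower.

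The protein-coding genes whose 2 group means lay nearest to those of KRT8 on the log2(TPM + 1) scale were IFITM3, CPS1 and FOS, at distances of 0.89, 1.35 and 2.15. IFITM3, an interferon-induced membrane protein, had 8.37 TPM with si-NC against 1776 TPM with si-FTO. CPS1, the entry enzyme of the urea cycle, had 20.8 and 1558 TPM, and FOS, an AP-1 subunit, had 25.04 and 888 TPM. Likeness over 2 values per gene is a description only.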

How the data were processed

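RNA of AGS cells was sequenced from 3 si-NC and 3 si-FTO libraries. TPM was deposited as 1 group mean for each gene. The study's methods name Bowtie, RSEM and hg19, whereas the submitters' processing notes name HISAT2 and hg19. The annotation is not given in the sources used here. The deposited tables also hold the authors' log2 fold changes, p-values and q-values, which were not used, and a second table with a subset of the same genes was left out. TPM keeps no depth, so no interval could be computed.

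Symbols were matched for 55726 of 58174 identifiers. A value of 0.0001 was read as 0. Ratios used a pseudocount of 1, a minimum mean TPM of 0.5 and a log2 ratio of at least 1. Limma had been planned if values per library were found. Coordinates and transcripts were from GENCODE 44 on GRCh37, the same assembly as hg19, and promoters from RefSeq on GRCh38.p14. Named genes were the 10 keratins, FTO, and other keratin genes or copies of at least 0.5 TPM. Of each list, up to 2 past the limit in each direction and the most abundant were named. Also named were the 3 protein-coding genes nearest to KRT8, the keratin with the largest ratio at the pseudocount of 1. Other genes named, such as partners, neighbours and markers listed at 0, were chosen with their values known. The keratins and lists were chosen with earlier results of these data known. The settings varied were the pseudocount (0.1), the minimum (none, or 5 TPM), the limit (a log2 ratio of 2), the scaling (quantile, median ratio, protein-coding genes alone) and the keratins summed (with processed copies, all keratin genes, without KRT8 and KRT18). Python 3.11.15, numpy 2.4.6, pandas 2.3.3 and matplotlib 3.10.9 were used, and the counting was tested on simulated data. There, only genes of at least 10 TPM in si-NC were changed, by folds well past the limit, so genes near 0 were not covered.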

Additional observations from a re-analysis of the deposited data

How the results depend on the processing

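No paired analysis was possible because the table holds 1 mean per group, and for the same reason no fit without a library was run. Of the 10 keratin genes, the 5 above 0 in both groups stayed higher in si-FTO under every alternative run for them. In any setting, 0 of the 10 were lower past the limit, but only KRT8, KRT10 and KRT18 could have been. KRT7, KRT15, KRT19, KRT20 and KRT23 were listed at 0 in si-NC, and KRT17 and KRT80 were too low there. The log2 ratio of KRT8 was 7.33 with processed copies added, which raises its level in si-NC, and KRT18 per KRT8 there was 2.96 in place of 4.83. With a pseudocount of 0.1 the ratios of KRT17 and KRT80 were 9.74 and 9.40, because both are low in si-NC, and passed that of KRT8 (8.17). Without KRT8 and KRT18 the keratin sums were 4.94 apart in log2, in place of 6.07. The number of keratin genes higher past the limit was 7 of 7 compared, 6 of 6 at a minimum of 5 TPM and 5 of 7 at a log2 ratio of 2. KRT7, KRT17 and KRT80 entered each of these counts only through si-FTO, so nothing is read from the counts. Over all genes, 2340 of 20493 were higher and 3492 lower. A minimum of 5 TPM left 1730 higher and 2254 lower genes of 12967 compared. A log2 ratio of 2 left 976 higher and 1241 lower genes of 20493, by construction. The groups were -0.18 apart in log2 by median ratio. Of the counts for gene lists under alternatives, 67 stayed within 1.5 times the main count and 11 did not. These counts are 7 or fewer, and some of the 67 are 0 in both settings, so they say little about how stable the lists are. The depth is unknown, so no lower limit of detection can be given for genes near 0.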
